A study of Mus musculus with 10 samples.

Results

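The loci of Xylt1, Tiam1 and Pcdh7 carried many accessible sites in cultured mouse bone marrow stroma and almost none in rMSC, the submitters' name (revitalized mesenchymal stromal cells) for stroma that received Klf7, Ostf1 and Xbp1 together with Irf3 and Irf7 by transduction. These 3 of 21631 protein-coding loci were chosen by that difference, selected on their summit counts in control stroma and rMSC, so their values in the cultures are given as a description, with no test. A locus is the gene body in the mm10 genome build with 10 kb on either side, and its members are the ATAC-seq peaks whose summit, the base of highest signal, lies inside it. In lists cut to 39912 peaks per library, the 3 loci together held 27, 24 and 28 summits in the 3 control stroma libraries and 1 summit in each of the 3 rMSC libraries.

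ATAC-seq uses a transposase that cuts accessible DNA, and a peak marks a site with more cuts than a background level. All 10 libraries came from C57BL/6J bone marrow stroma. Scf-GFP-negative (n = 2) and Scf-GFP-positive (n = 2) cells were freshly sorted as CD45-, Ter119- and CD31- cells, a gate against blood cells, red cells and endothelium, with no transduced gene. Scf-GFP reports Kitl, the gene of stem cell factor. Control stroma (n = 3), which received a control vector, and rMSC (n = 3) were both grown from sorted Scf-GFP-positive cells in medium with 20% serum and FGF-basic. Animal age is not given in the sources used here, and nothing in the labels ties replicates to separate animals or cultures. The p-values below therefore describe the spread among the libraries, and that spread may be technical.

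Xylt1 encodes xylosyltransferase 1, which adds xylose to serines of proteoglycan core proteins and so begins the chains of chondroitin sulfate and heparan sulfate. Those chains bind growth factors and chemokines in the matrix of the marrow. Tiam1 is a guanine nucleotide exchange factor that loads the small GTPase Rac1 with GTP, a switch for actin remodelling, cell spreading and cell contacts. Pcdh7 is a protocadherin, a cell surface protein with extracellular cadherin repeats that takes part in adhesion between cells.

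The 3 genes lie on different chromosomes and are long. Xylt1 (gene 233781) spans chr7:117380979-117667630, 286.7 kb, with 1 annotated transcript. Tiam1 (gene 21844) spans chr16:89787111-90145600, 358.5 kb, with 11 transcripts, and its upper end overlaps the lncRNA Gm10789. Pcdh7 (gene 54216) spans chr5:57716145-58133236, 417.1 kb, with 14 transcripts, and its lower end overlaps the lncRNA 4932441J04Rik. The locus of Tiam1 also holds the lncRNA Gm52239 and the pseudogene Gm2805, and that of Pcdh7 the pseudogene Gm17977, so a summit belongs to the locus and not to 1 transcript. Gene length placed the members at the 95.6, 96.9 and 97.8 percentiles of the 9162 tested loci, those averaging 2 or more summits over the libraries, whose median gene length was 28.3 kb. The part of gene length in the members' counts was not tested, and counts at loci of such length are given as a description. The 400 loci with a gene at least as long as Xylt1 had a median of 6.67 summits in control stroma and 6.0 in rMSC, and of the 260 with a control mean of at least 5, rMSC had at least the control mean at 102 and a mean of at most 1 summit at 9.

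Promoter sequences (RefSeq, GRCm38.p6, which has mm10 coordinates) were at hand for Pcdh7 and Tiam1, and they are shown because the start of Pcdh7 is the one site of the 3 loci that all 3 deposited rMSC lists held. The window chr5:57717831-57718130, plus strand, holds the annotated start of Pcdh7 at 57718081. The window chr16:89974650-89974949, minus strand, holds a start of Tiam1 inside the gene body at 89974699. Capitals in the first sequence mark runs of the repeat GAGAGAGA, and in the second a match to the AP-1 motif TGANTCA, where N is any base.
Pcdh7: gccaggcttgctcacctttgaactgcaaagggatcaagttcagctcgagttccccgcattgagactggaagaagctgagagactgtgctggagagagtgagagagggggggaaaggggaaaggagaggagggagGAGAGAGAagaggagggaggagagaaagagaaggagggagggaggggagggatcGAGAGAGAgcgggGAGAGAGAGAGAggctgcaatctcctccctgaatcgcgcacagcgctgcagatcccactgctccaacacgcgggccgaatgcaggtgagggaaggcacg
Tiam1: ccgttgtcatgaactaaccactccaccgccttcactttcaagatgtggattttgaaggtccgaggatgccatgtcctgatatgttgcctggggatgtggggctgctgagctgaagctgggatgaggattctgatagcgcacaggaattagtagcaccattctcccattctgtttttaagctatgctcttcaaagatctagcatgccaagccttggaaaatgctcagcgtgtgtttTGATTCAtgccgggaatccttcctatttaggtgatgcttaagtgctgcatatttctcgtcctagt
In all 10 deposited lists a peak overlapped the Pcdh7 window, while in equal-size lists this held for all 7 other libraries and, of rMSC, for replicate 1 alone. No peak of any list overlapped the Tiam1 window, nor a further Tiam1 start at chr16:89818303-89818602 on the minus strand. The Pcdh7 window had a GC content of 59.33%, against a median of 56.67% over 21045 protein-coding promoter windows of the same length. It held 5 overlapping or separate matches to GAGAGAGA, a motif added after the letters were seen, which occurs in 3.4% of those windows. The other motifs searched on both strands were AP-1 (TGANTCA, in 7.04% of windows), the GC box (GGGCGG, 46.7%), RUNX (TGTGGT, 14.7%), TEAD (GGAATG, 13.5%), IRF (3.38%) and KLF (GGGNGTGG, 19.6%). None of these 6 had a match in the Pcdh7 window. The printed Tiam1 window had 1 AP-1 match and the further Tiam1 window 1 RUNX match. A match is a run of letters and not a bound site.

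The lists give no read totals. From the fold enrichment of each peak its summit pileup was recovered, as a whole number for 100% of peaks. A pileup is the number of fragments over the summit. The same step gave 1 background pileup per library, a relative guide to depth and no read total. It was 0.353, 0.297 and 0.296 in control stroma and 0.236, 0.295 and 0.346 in rMSC. In Scf-GFP-negative cells it was 0.715 and 0.391, and in Scf-GFP-positive cells 0.408 and 0.591. The lists held 39936 to 78489 peaks, the weakest resting on 3 to 5 fragments, so a site missing from a list can be open and undetected. The lists of rMSC held 66282, 70975 and 78489 peaks and those of control stroma 48417, 75376 and 72791. A number of peaks does not give the depth, and the part of detection in the members' counts was not tested. The peak names carry a code, read here as the flow cell, which the sample labels do not name. By that code, replicate 1 of every group was on another flow cell than the rest. The label of the Scf-GFP-negative cells was checked on 12 stroma markers, whose loci summed to 18 to 23 summits there with Prrx1, Vcam1 and Adipoq at 0, against 54 to 69 in Scf-GFP-positive cells, 56 to 63 in control stroma and 40 to 45 in rMSC, with Lepr at 0 in both cultures. Loci of 11 blood markers summed to 39 to 50 summits in Scf-GFP-negative cells, with Itgam and Mpo at 0, and to 12 to 20 in the other groups. Loci of 10 endothelial markers summed to 9 to 20 across all groups.

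At Xylt1, the enzyme that starts proteoglycan chains, equal-size lists held 9, 6 and 12 summits in control stroma replicates 1 to 3 and 0 in every rMSC library. All 3 control libraries lay above all 3 rMSC libraries. The control mean was 9.0 ± 3.0 summits (SD, n = 3), over 5740, 6052 and 6995 bp of peaks. The lists as deposited, which run further down into weak peaks, gave 12, 17 and 24 summits in control stroma and 0, 0 and 6 in rMSC. The 6 summits of rMSC replicate 3 had pileups of 4 or 5 fragments, and 5 of their 6 sites were listed in no other library.

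At Tiam1, the Rac exchange factor, control stroma held 8, 6 and 6 summits and rMSC 0, 0 and 0. The control mean was 6.67 ± 1.15 (SD, n = 3), over 3297, 3099 and 2921 bp. In the deposited lists the counts were 10, 12 and 11 in control stroma and 0, 1 and 1 in rMSC. The 2 rMSC summits had pileups of 3 and 4 fragments, at chr16:90146627-90146826 just above the gene and at chr16:90071097-90071582 inside it. No control library listed either site. The site inside the gene was also listed in Scf-GFP-negative replicate 1, with 33 fragments, and in Scf-GFP-positive replicate 2, with 6.

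At Pcdh7, the protocadherin, control stroma held 10, 12 and 10 summits and rMSC 1, 1 and 1. The means were 10.7 ± 1.15 and 1.0 ± 0 (SD, n = 3 each), and peaks covered 4987, 8611 and 6491 bp in control stroma against 517, 225 and 712 bp in rMSC. In the deposited lists the counts were 12, 19 and 18 against 4, 6 and 3. The summit of rMSC replicate 2 in the equal-size list lay inside the gene body and not at its start. The rMSC libraries were thus lowest at Pcdh7 too. Its locus was not empty in the equal-size or the deposited lists, and the word closed covers it only in part. When peaks tied at the end of a list were taken in list order or left out, rMSC replicate 2 held 0 summits there.

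Within replicate 1, which shares a flow cell, control stroma and rMSC held 9 and 0 summits at Xylt1, 8 and 0 at Tiam1 and 10 and 1 at Pcdh7. Replicates 2 and 3, on the other flow cell, gave 6 and 12 against 0 and 0, 6 and 6 against 0 and 0, and 12 and 10 against 1 and 1. The gap between the cultures was there on both flow cells. The loci were chosen on these same counts, so this split is a description and no test of the flow cell.

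**Figure D1:**
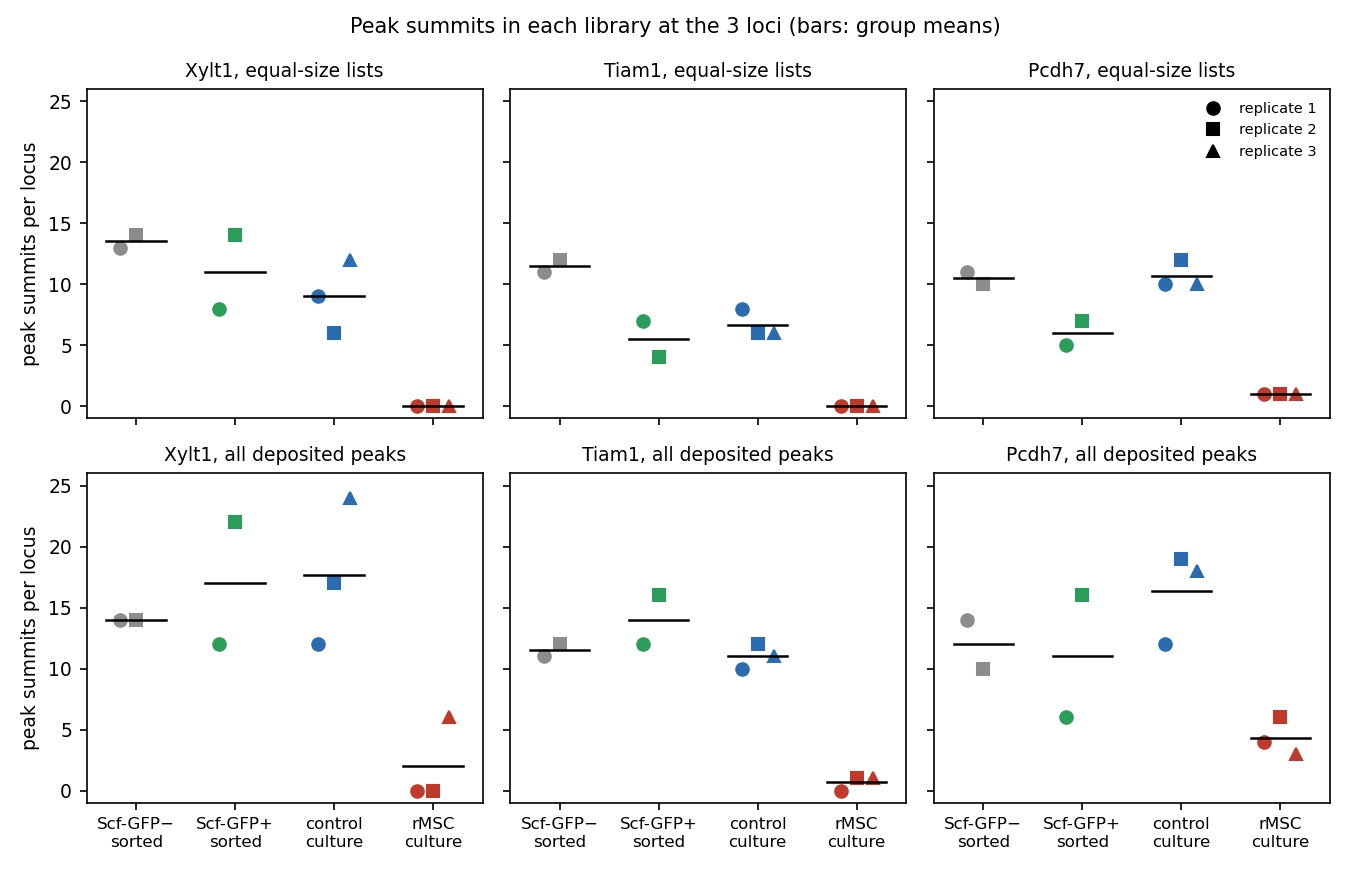
Peak summits per locus (y axis) in each library, by group (x axis), for Xylt1, Tiam1 and Pcdh7, in equal-size lists (upper row) and in all deposited peaks (lower row); points are libraries, symbols give the replicate and bars are group means. In the upper row the rMSC points sit at 0 for Xylt1 and Tiam1 and at 1 for Pcdh7, below every other library.

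Every rMSC library was below every control library at 642 of 9162 tested loci, 7.01%, and the members are among them because they were chosen so. By the fall of the mean from control stroma to rMSC, Pcdh7 ranked 7th, Xylt1 10th and Tiam1 25th of the 9162. The choice had no numeric limit, so the loci nearest to it are given here as a description. Of 1634 loci with a control mean of at least 5 summits, 3 had no summit in any rMSC library, namely Xylt1, Tiam1 and Gabrg3, a GABA receptor subunit. A total of 14, Pcdh7 among them, had at most 1 in each. Pid1, with 9, 8 and 7 summits in control stroma and 0, 1 and 1 in rMSC, and Adamts16, a secreted metalloprotease with 14, 9 and 10 against 1, 0 and 0, were of the same kind and were named after their values were seen.

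Peaks of all libraries that touched one another were merged into regions, 57 at Xylt1, 44 at Tiam1 and 37 at Pcdh7. In equal-size lists, 5 regions at Xylt1, 4 at Tiam1 and 2 at Pcdh7 were listed in all 3 control libraries and in no rMSC library. Control pileups in these 11 regions ran from 8 to 27 fragments. In the deposited rMSC lists 9 of the 11 had no peak at all, and the other 2 held peaks of 4 or 5 fragments.

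At Xylt1 the strongest of these was at the lower-coordinate end of the gene, chr7:117379672-117382744. Its pileup was 25, 23 and 27 in control stroma, 17 and 15 in Scf-GFP-negative cells and 30 and 31 in Scf-GFP-positive cells, and no rMSC list had a peak there. Another region, chr7:117469725-117471161, 89.5 kb into the gene body, had pileups of 26, 23 and 18 in control stroma. It was listed in no sorted library and, at 5 fragments, in rMSC replicate 3. The remaining 3 lay together further in and were shared with Scf-GFP-positive cells. Region chr7:117474150-117474867 had 11, 9 and 11 fragments in control stroma and 9 and 8 in Scf-GFP-positive cells. Region chr7:117484444-117485815 had 14, 10 and 14 against 22 and 25. Region chr7:117486430-117487708 had 13, 10 and 15 against 26 and 13. Neither Scf-GFP-negative list nor any rMSC list held these 3 regions.

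At Tiam1 the region with the highest pileup of the locus lay 2.0 kb below the upper end of the gene, which is on the minus strand, at chr16:90142337-90144849, where Gm10789 also lies. Its pileup was 34 and 48 in Scf-GFP-negative cells, 45 and 55 in Scf-GFP-positive cells and 20, 23 and 9 in control stroma, and no rMSC list held it. Region chr16:89991450-89992222 had 12, 14 and 17 fragments in control stroma and 9 in Scf-GFP-negative replicate 2, with no peak elsewhere. Region chr16:89980338-89980862, with 11, 19 and 11 fragments, and region chr16:89960322-89960812, with 8, 9 and 8, were listed in control stroma and in no other library.

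At Pcdh7 the region over the start of the gene was in every deposited list, but not in the equal-size list of rMSC replicate 2. In that of rMSC replicate 3 its peak lay outside the promoter window printed above. Region chr5:57716380-57720157, which contains the promoter printed above, had pileups of 19 and 11 in Scf-GFP-negative cells, 21 and 19 in Scf-GFP-positive cells, 16, 16 and 16 in control stroma and 8, 5 and 7 in rMSC. As recovered, all 3 rMSC values were below all 7 others, but these pileups were not scaled for depth. The background pileup was 0.236 in rMSC replicate 1, against 0.715 and 0.391 in Scf-GFP-negative cells. Relative to it, rMSC replicate 1 was not below the Scf-GFP-negative libraries, while rMSC replicates 2 and 3 were. The adjoining region chr5:57713937-57716365, over the lower end of the gene, had 18, 12 and 13 fragments in control stroma, and 5, 4 and no peak in rMSC. Region chr5:57755734-57756297, 39.9 kb into the gene, had 17, 11 and 15 in control stroma, 6 in rMSC replicate 2 and no peak in any other library. Region chr5:57758215-57759136 had 10, 9 and 9 in control stroma and was listed nowhere else. The sole other rMSC peaks, at chr5:57939890-57940089 and chr5:57943748-57943947, had 4 fragments each in 1 library each.

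The regions listed in sorted cells and in control stroma were partly different ones. Of the regions present in equal-size lists, 22 of 34 at Xylt1, 16 of 26 at Tiam1 and 11 of 23 at Pcdh7 were listed in sorted cells alone. A further 6, 8 and 8 were listed in control stroma alone. Many regions were listed in 1 library alone, 17 of 34 at Xylt1, 14 of 26 at Tiam1 and 11 of 23 at Pcdh7. Part of this split is therefore peaks that did not repeat between replicates. At Xylt1, region chr7:117393494-117394786 had 14, 18, 5 and 10 fragments in the 4 sorted libraries, in the order Scf-GFP-negative 1 and 2 and Scf-GFP-positive 1 and 2, and no peak in culture. At Tiam1, region chr16:89985797-89986711 had 11, 9, 10 and 7, and at Pcdh7, region chr5:57781745-57782388 had 12, 23, 7 and 7, both again with no peak in culture. These 3 regions were picked after their values were seen. A like number of summits in sorted cells and in control stroma was thus made up in part of other listed sites. A site listed in 1 library can be open and unlisted in another.

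**Figure D2:**
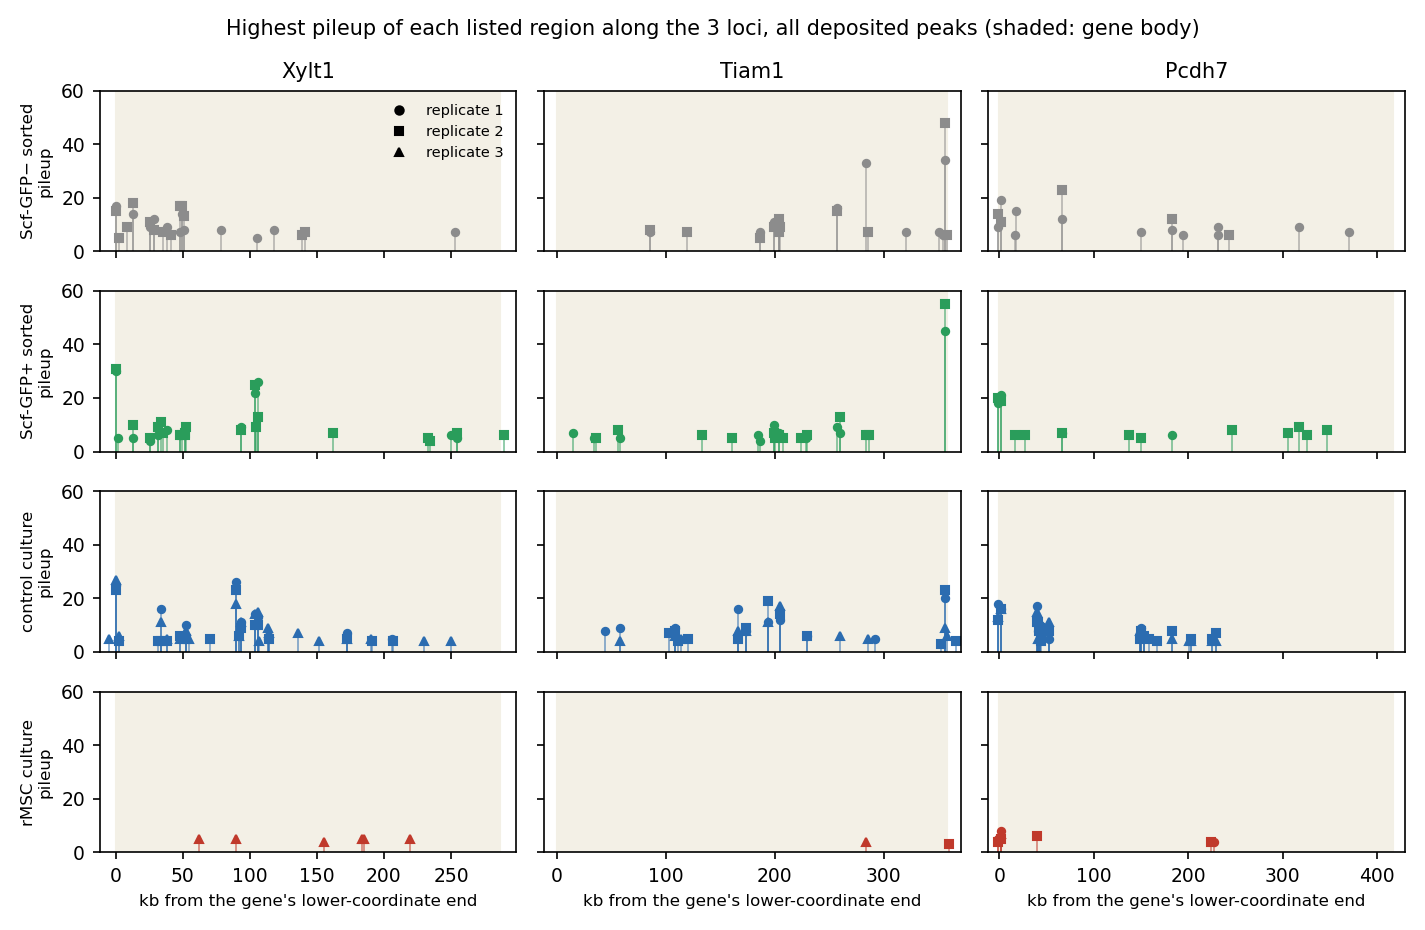
Highest summit pileup in fragments (y axis) of each region in all deposited peaks, against distance in kb from the lower-coordinate end of the gene (x axis), with 1 row per group, 1 column per locus and symbols for replicates; the gene body is shaded. Peaks in the rMSC row reach 8 fragments at the start of Pcdh7 and 3 to 6 elsewhere, while control stroma reaches 27, 23 and 18 fragments at Xylt1, Tiam1 and Pcdh7.

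In freshly sorted cells the 3 loci were also rich in summits. This contrast was not used to choose them and was fitted with limma on log2(summits + 0.5) over all 9162 loci, with Benjamini-Hochberg adjustment. The fit holds all 4 groups, so its estimate of the spread at these loci draws in part on the control stroma and rMSC libraries of the choice, whose rMSC values have no spread. At Tiam1, the 2 Scf-GFP-negative libraries held 11 and 12 summits and the 2 Scf-GFP-positive libraries 7 and 4, without overlap. The difference, Scf-GFP-positive minus Scf-GFP-negative, was -1.05 ± 0.24 (log2, SE), with a limma adjusted p of 0.0164. At Pcdh7 the counts were 11 and 10 against 5 and 7, also without overlap, a difference of -0.77 ± 0.17 with a limma adjusted p of 0.0131. At Xylt1 they were 13 and 14 against 8 and 14, which overlap, and the difference of -0.33 ± 0.33 did not pass (limma adjusted p = 0.476). Of all tested loci 30.7% passed in either direction and 16.9% with fewer summits in Scf-GFP-positive cells, and the groups did not overlap in that direction at 29.8%, so calls of this kind were common. The median of all loci was -0.238, and relative to it the differences were -0.81 for Tiam1, -0.54 for Pcdh7 and -0.10 for Xylt1.

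With the 4 sorted libraries fitted alone, which draws on none of the libraries of the choice, neither locus passed, with a standard error of 0.33 and a limma adjusted p of 0.197 at Tiam1 and 0.21 and 0.152 at Pcdh7. The fit of all groups takes its spread in part from the libraries of the choice, so its calls are not independent of the choice. The fit of the sorted libraries alone has fewer libraries, and over all loci it gave 937 calls against 2811. Why the calls at Tiam1 and Pcdh7 were lost was not tested.

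The calls also depended on which peaks were counted. The equal-size lists of the Scf-GFP-negative libraries run down to a −log10 q of 2.653 and 2.097, and those of the other libraries to 4.268 to 5.802. In all deposited peaks Tiam1 had 11 and 12 summits against 12 and 16 (log2 difference 0.26, limma adjusted p = 0.760) and Pcdh7 14 and 10 against 6 and 16 (-0.25, limma adjusted p = 0.759). Xylt1 had 14 and 14 against 12 and 22 (0.21, limma adjusted p = 0.943). Among peaks with a −log10 q of at least 5, Tiam1 had 5 and 10 against 7 and 3, which overlap, with a difference of -0.57 and a limma adjusted p of 0.358, and without Scf-GFP-negative replicate 2 the limma adjusted p of Tiam1 was 0.0684. Pcdh7 had 6 and 8 against 4 and 5 at that q limit and still passed in the fit of all groups (-0.58, limma adjusted p = 0.0436). Pcdh7 did not pass when peaks tied at the end of a list were taken in list order (limma adjusted p = 0.400) or left out (0.132), and Tiam1 did not pass with ties in list order (0.060). Within flow cells, Scf-GFP-positive cells had 7 against 11 and 4 against 12 summits at Tiam1, 5 against 11 and 7 against 10 at Pcdh7, and 8 against 13 and 14 against 14 at Xylt1, in equal-size lists. The blood marker loci given above were also richest in the Scf-GFP-negative libraries, and their part in these values was not tested.

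Set beside the sorted cells that both cultures were grown from, control stroma overlapped Scf-GFP-positive cells at Xylt1, with means of 9.0 ± 3.0 (n = 3) and 11 ± 4.24 summits (SD, n = 2), and at Tiam1, with 6.67 ± 1.15 and 5.5 ± 2.12. At Pcdh7 the mean was 10.7 ± 1.15 in control stroma and 6.0 ± 1.41 in Scf-GFP-positive cells, and the 2 groups did not overlap in equal-size lists. In all deposited peaks they did, with 12, 19 and 18 summits against 6 and 16. Control stroma is one of the groups used in the choice, so these differences have no test. The share of all loci at which control stroma and Scf-GFP-positive cells do not overlap was not counted, so the lack of overlap at Pcdh7 has no background. For Scf-GFP-positive below Scf-GFP-negative cells that share was 29.8%, and for rMSC below control stroma 7.01%. The order of the means is a description. Xylt1 ran Scf-GFP-negative, Scf-GFP-positive, control stroma, rMSC, with overlap between neighbours before rMSC. Tiam1 ran Scf-GFP-negative, control stroma, Scf-GFP-positive, rMSC, and control stroma overlapped Scf-GFP-positive cells. Pcdh7 ran control stroma, Scf-GFP-negative, Scf-GFP-positive, rMSC, and the first 2 groups overlapped.

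Outside the loci, summits listed in control stroma and missing from rMSC in equal-size lists lay below Xylt1 and Tiam1 and above Pcdh7. In all deposited peaks from 10 to 100 kb, counts below Xylt1 were 3, 5 and 5 in control stroma against 0, 0 and 1 in rMSC. Below Tiam1 they were 2, 1 and 1 against 0, 0 and 1, and above Pcdh7 1, 2 and 3 against 0, 0 and 0. The counts that follow are from equal-size lists. From 10 to 100 kb below Xylt1, control stroma had 3, 3 and 3 summits and rMSC 0, 0 and 0, while from 10 to 100 kb above it the counts were 3, 2 and 2 against 2, 1 and 3. From 10 to 100 kb below Tiam1 they were 2, 1 and 1 against 0, 0 and 0, and above it 2, 3 and 2 against 4, 2 and 4. Around Pcdh7, which has no protein-coding neighbour within 500 kb, control stroma had 1, 2 and 1 summits from 10 to 100 kb above the gene and rMSC 0, 0 and 0. Summits from 100 to 500 kb above were 5, 5 and 5 against 4, 4 and 4 for Xylt1, 10, 8 and 9 against 7, 6 and 7 for Tiam1, and 2, 1 and 1 against 0, 0 and 0 for Pcdh7. None of these has a test, since the compared libraries are those of the choice.

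Of the neighbouring genes, those with summits in control stroma had summits in rMSC too. Above Xylt1, Rps15a, a ribosomal protein gene, had means of 2.67 summits in control stroma and 2.67 in rMSC, Arl6ip1 2.33 and 2.0, and Smg1, a kinase of nonsense-mediated decay, 3.67 and 4.33. Above Tiam1, Sod1, the cytosolic superoxide dismutase, had 1.0 and 1.0, Scaf4 2.67 and 3.33, and the kinase gene Hunk 1.67 and 0.667. The keratin-associated genes below Tiam1 (Krtap21-1, Krtap6-2, Krtap8-1, Krtap7-1 and Krtap11-1) and Gm33084 had 0 in every library.

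**Figure D3:**
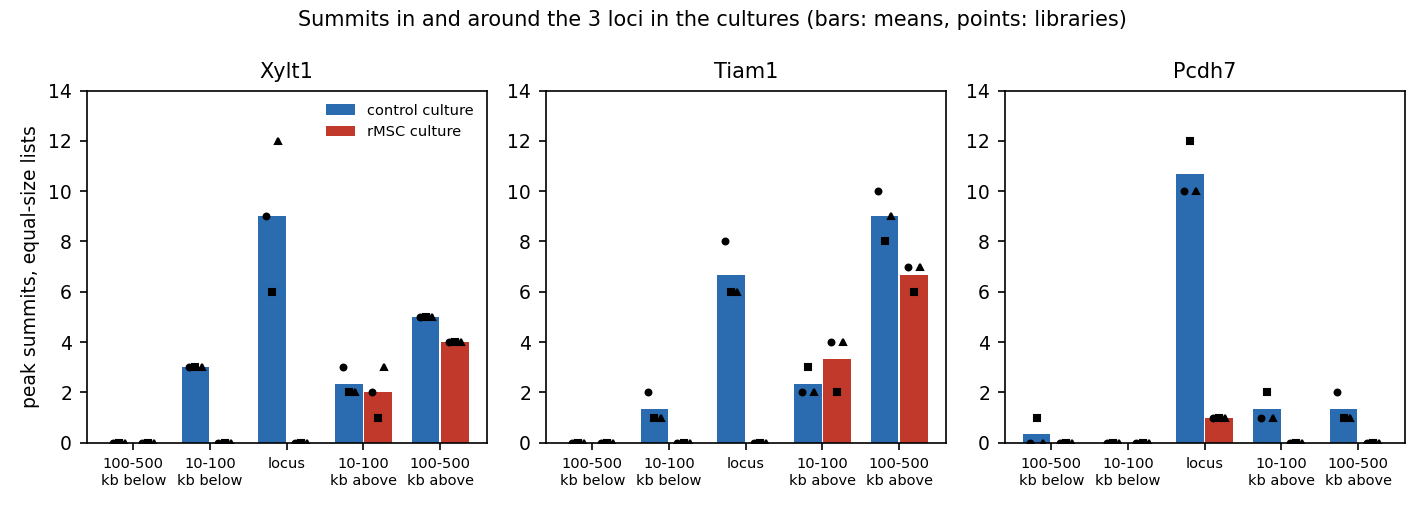
Peak summits in equal-size lists (y axis) in the member locus and in windows from 10 to 100 kb and from 100 to 500 kb on either side (x axis), for control stroma and rMSC; bars are means and points are the 3 libraries of each group. The rMSC bars are at 0 or 1 in the loci, while above Xylt1 and Tiam1 both groups carry summits.

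Close relatives of the 3 genes did not have the members' pattern. Xylt2, the other xylosyltransferase, had 2 summits in each control and each rMSC library and was below the level needed for a test. Tiam2, the second gene of the Tiam family, had 8, 10 and 11 summits in control stroma and 11, 13 and 12 in rMSC, and 5, 6, 7 and 11 in the sorted libraries. Among other protocadherins, Pcdh1 had 5, 2 and 3 against 3, 3 and 4, Pcdh9 6, 7 and 3 against 5, 6 and 2, and Pcdh18 3, 2 and 2 against 2, 1 and 3. Pcdh19 had 7, 7 and 4 against 3, 3 and 4. None of these 4 protocadherin loci passed the test between rMSC and control stroma.

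**Figure D4:**
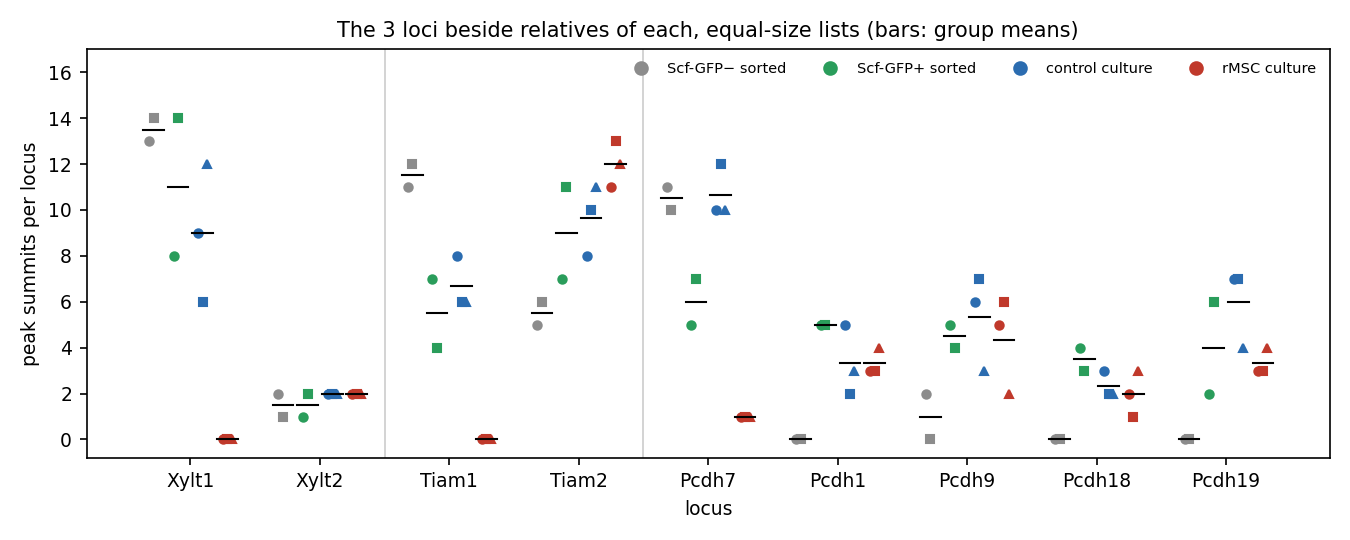
Peak summits per locus in equal-size lists (y axis) for each member and its relatives (x axis), by group; points are libraries, symbols give the replicate as in the plot of summits per locus and bars are group means. Tiam2 sits at 8 to 13 summits in both cultures where Tiam1 has 6 to 8 in control stroma and 0 in rMSC.

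The wider pathways showed few calls between rMSC and control stroma, where 3.12% of all tested loci passed, 1.72% with more and 1.4% with fewer summits, and where the median log2 difference was 0. Of 42 genes that build or modify glycosaminoglycan chains, Xylt1 left out, 28 were tested, 1 had more and 1 had fewer summits, and their median difference was 0.21. Chst11, a chondroitin 4-sulfotransferase, had 10, 11 and 12 summits in control stroma and 21, 18 and 15 in rMSC (0.68 ± 0.14, limma adjusted p = 0.0475). Csgalnact2, which begins and extends chondroitin chains downstream of Xylt1, had 3, 4 and 3 against 1, 2 and 1 (-1.10 ± 0.22, limma adjusted p = 0.0456). Each of these 2 calls held in 1 of 10 fits that left out 1 library. A further fit set replicate 1 apart from all other replicates, which is the split by flow cell, and is called the replicate block here. With it neither call passed (limma adjusted p = 0.0761 and 0.0648). Of 32 genes of proteoglycan core proteins, the substrates of Xylt1, 15 were tested and 0 passed with limma after adjustment, 6 having an unadjusted p under 0.05, and the median was -0.22.

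Of 33 Rac exchange factors other than Tiam1, 29 were tested and 1 passed, Dock9, with 4, 2 and 3 summits in control stroma and 13, 14 and 8 in rMSC (1.80 ± 0.30, limma adjusted p = 0.0283). It passed in 5 of 10 fits that left out 1 library and not with the replicate block (limma adjusted p = 0.052). Dock9 acts mainly on the related GTPase Cdc42. Of 37 genes of Rac proteins, effectors and partners 27 were tested and 1 passed, the polarity gene Pard6g, with 3, 3 and 2 against 1, 1 and 1 (-1.06 ± 0.17, limma adjusted p = 0.0270). With the replicate block its limma adjusted p was 0.052, and with all deposited peaks Pard6g was at 0.08, with a limma adjusted p of 0.939. The medians of the 2 lists were 0.12 and -0.12.

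Of 11 protocadherins other than Pcdh7, 5 were tested and 0 passed with limma, none of the 5 having an unadjusted p under 0.05 either, and the median was -0.25. Of 36 other cadherins and catenins 17 were tested and 1 passed, Fat3, a very large atypical cadherin, with 3, 3 and 2 summits in control stroma and 0, 0 and 0 in rMSC. Its limma adjusted p was 0.00249, and it passed in 10 of 10 fits that left out 1 library and with the replicate block (0.01). The list median was 0.12. With all deposited peaks none of Chst11, Csgalnact2, Dock9 and Fat3 passed, their limma adjusted p-values being 0.305, 0.368, 0.0924 and 0.0521.

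Between the sorted cells the same lists had more calls, set against 13.8% of all tested loci with more and 16.9% with fewer summits in Scf-GFP-positive cells. Of 5 tested protocadherins 3 had more, Pcdh1, Pcdh18 and Pcdh19, with 5 and 5, 4 and 3, and 2 and 6 summits against 0 in both Scf-GFP-negative libraries. Their limma adjusted p-values were 0.0004, 0.00159 and 0.00282. Of 29 tested Rac exchange factors 8 had more and 1 fewer. Farp1 had 13 and 11 summits against 0 and 1 (3.85 ± 0.43, limma adjusted p = 0.000848), while Sos1, an exchange factor for Ras and Rac, had 3 and 4 against 8 and 8 (-1.10 ± 0.23, limma adjusted p = 0.0102). The call at Sos1 was lost with all deposited peaks (limma adjusted p = 0.0631).

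Of 28 tested glycosaminoglycan genes 7 had more and 5 fewer. Sulf1, which removes sulfate from heparan sulfate outside the cell, had 5 and 3 against 0 and 0 (limma adjusted p = 0.000241), and Hs2st1, a heparan sulfate 2-sulfotransferase, had 2 and 1 against 7 and 5 (limma adjusted p = 0.0124, and 0.271 with all deposited peaks). Of 15 tested core proteins 7 had more and 0 fewer. The glypican Gpc6 had 15 and 12 against 1 and 0 (limma adjusted p = 0.00084), and the syndecan Sdc4 5 and 4 against 0 and 0 (limma adjusted p = 8.26e-05). Medians were 2.99 for protocadherins, -0.04 for exchange factors, -0.05 for glycosaminoglycan genes and 0.97 for core proteins, beside -0.238 for all tested loci. In the lists of Rac partners, 5 had more and 2 fewer of 27 (median 0.0), and of other cadherins 7 more and 3 fewer of 17 (median 0.87), led by Cdh2, N-cadherin, with 12 and 9 against 0 and 0 (limma adjusted p = 1.77e-05). With the 4 sorted libraries fitted alone, Pcdh19, Farp1, Sos1, Hs2st1 and Gpc6 did not pass (limma adjusted p = 0.118, 0.101, 0.0736, 0.130 and 0.0958), while Pcdh1, Pcdh18, Sulf1, Sdc4 and Cdh2 did. Scf-GFP-negative libraries were those low in stroma markers.

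The loci whose summit counts over the 10 libraries were most like a member's were found by Pearson correlation of log2(summits + 0.5), as a description. Libraries of a group share their condition, and the members were chosen for a common pattern, so their likeness to one another is fixed by the choice. For Xylt1 the nearest outside loci were Atxn7l1 (r = 0.969), Nfia (0.968) and Slc12a4 (0.960), for Tiam1 they were Gda (0.974), Nfia (0.967) and Atxn7l1 (0.955), and for Pcdh7 they were Gda (0.964), Vrk2 (0.937) and Gfpt2 (0.929). Gda, guanine deaminase, had 4, 4 and 2 summits in control stroma and 0, 0 and 0 in rMSC. Nfia, a nuclear factor I transcription factor, had 23, 17 and 19 against 9, 10 and 9, and Atxn7l1 15, 12 and 15 against 5, 7 and 6. The last 2 thus kept many summits in rMSC where Xylt1 and Tiam1 had none.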

How the data were processed

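ATAC-seq peak lists of 10 mouse libraries were used, 1 list per library. BWA, MACS2 and mm10 are named in the submitters' processing notes, with versions not stated there. The columns deposited for a peak are a fold enrichment (the authors' ratio of pileup to background), the −log10 of its p-value and q-value, a deposited score that equals 10 times the −log10 q without decimals, and a summit offset. Whole pileups were recovered from the deposited fold within 0.01.

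Chromosome Y was left out. Each list was cut to the 39912 peaks of highest −log10 p. Between 725 and 9121 peaks per library were tied at that end, and ties were thinned evenly along the genome, because taking them in list order favours some chromosomes. This step and its alternatives were chosen after seeing the data. Summits were counted per protein-coding locus (RefSeq GRCm38.p6, 10 kb flanks), and 9162 loci averaging 2 or more summits were fitted with limma 3.58.1 (R 4.3.3, trend) on log2(summits + 0.5), 4 groups in 1 fit, two-sided, with Benjamini-Hochberg adjustment and a threshold of 0.05. The script was tested on simulated data.

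Members, lists and tests were chosen with earlier results of these data known. Named genes are the members, their 5 likest loci, neighbours within 500 kb, and up to 4 passing genes per list and direction, of which the text gives part. Same-numbered libraries share a flow cell, as read from a code in the peak names. The correlations of their deviations ran from -0.013 to 0.014, and the fit has no replicate block. A block of replicate 1 against all other replicates, the split by flow cell, was run as an alternative and is the replicate block of the text. Replicate number itself was not fitted. 1 blood marker is not reported here.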

Additional observations from a re-analysis of the deposited data

How the results depend on the processing

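Absence from a list is not absence of open DNA, since pileups under 3 to 5 fragments were not listed. Between Scf-GFP-positive and Scf-GFP-negative cells 2811 loci passed, and 1316 with the gene body alone, 5168 with 50 kb flanks, 1191 at a mean of at least 4 summits, 937 when the 2 groups were fitted alone and 1939 to 2710 when 1 library was left out. More summits made up 1265 of those 2811 calls, 1685 of 2138 with all deposited peaks, 1473 of 2001 with −log10 q of at least 5, 841 of 1316 with the gene body alone, 669 of 1191 at a mean of at least 4 and 958 of 3018 without tied peaks. Between rMSC and control stroma 286 passed, and 35 with all deposited peaks (25 with more), 151 with the gene body alone (66 with more), 444 with 50 kb flanks, 153 with the replicate block, 731 with no filter, 120 at a mean of at least 4, 521 when the 2 groups were fitted alone, and 71 (without control stroma replicate 1) to 545 (without Scf-GFP-negative replicate 1) when 1 library was left out. The difference between sorted groups reversed at Xylt1 to 0.21 with all deposited peaks and ran from -0.72 to 0.0515 with 1 library left out, reversed without Scf-GFP-positive replicate 1. At Tiam1 it reversed to 0.26 with all deposited peaks and did not pass at -0.57 (−log10 q of at least 5), -0.98 (50 kb flanks), -0.89 (ties in list order) and -1.05 (2 groups alone), with -1.41 to -0.68 when 1 library was left out. At Pcdh7 it did not pass at -0.25 (all deposited peaks), -0.59 (ties in list order), -1.08 (no tied peaks) and -0.77 (2 groups alone), with -1.0 to -0.55 when 1 library was left out. With the replicate block the limma adjusted p was 0.0150 for Tiam1, 0.0187 for Pcdh7 and 0.493 for Xylt1, so no member call changed, while the calls of Chst11, Csgalnact2, Dock9 and Pard6g between rMSC and control stroma (0.0761, 0.0648, 0.052 and 0.052) and of Hs6st1 between sorted groups (0.0516) were lost. Mean summits of control stroma were 17.7, 11 and 16.3 at Xylt1, Tiam1 and Pcdh7 with all deposited peaks, 8.33 at Tiam1 with 50 kb flanks, 8.0 at Tiam1 with all tied peaks kept and 8.33 at Pcdh7 with the gene body alone. Those of rMSC were 2.0, 0.667 and 4.33 with all deposited peaks, 0.333 at Xylt1 and 0.667 at Tiam1 with 50 kb flanks, and 0.667 at Pcdh7 with ties in list order and with no tied peaks. Leaving out 1 library gave control means of 7.5 to 10.5, 6.0 to 7.0 and 10.0 to 11, and rMSC means of 0, 0 and 1.0. Regions in all control and no rMSC lists numbered 3 at Xylt1 and 2 at Tiam1 when 50% of a region had to be covered, 6 at Pcdh7 with all deposited peaks, and 5 to 7, 4 to 5 and 2 to 4 when 1 library was left out. Of 802 values of the named list genes under alternatives, 674 kept direction and call, 127 no longer passed and 1 reversed, Pard6g at 0.0803 with all deposited peaks. The cause of these changes was not tested.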
